A study of Homo sapiens with 6 samples.

Results

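The fused kinase gene BCR-ABL1, its relative ABL2 and the adaptors and enzymes that act next to the fused protein were examined in K562 cells. The set was given by name and not by any measured value: BCR, ABL1, ABL2, CRK, CRKL, GAB2, GRB2, SOS1, INPP5D and DOK2. In the platform annotation used here, 9 of these 10 genes had at least 1 probe set carrying their symbol alone, and CRK was not analysed here. The 9 genes had 22 probe sets, of 54613 probe sets and 19775 genes in all. A probe set is a group of short probes that reads 1 stretch of a transcript.

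K562 is an established cell line derived from a human chronic myeloid leukaemia. Calactin is a cardenolide, a plant steroid of the class that inhibits the sodium pump. The calactin group held 3 arrays of cells given calactin at a dose the labels write as 0.15 mM and harvested at 12 h, and the other group held 3 arrays of untreated cells of the same 12 h. Both groups were the same unmodified line in the same medium, and the labels name replicates 1 to 3 in each group as biological without saying whether they were separate cultures, so p-values measure only the spread between these samples. The arrays read RNA of whole cultures, in which fewer cells and less RNA per cell cannot be told apart.

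In chronic myeloid leukaemia a chromosome exchange joins the first part of BCR to the kinase part of ABL1, so that the fused transcript starts from the BCR promoter and ends with ABL1. The fused protein is an always active tyrosine kinase. GRB2 binds a phosphorylated tyrosine in its BCR part and carries SOS1, which loads RAS with GTP, and GAB2, which recruits PI3 kinase. CRKL and CRK are adaptors that the fused kinase binds and phosphorylates. INPP5D, also called SHIP1, removes a phosphate from the lipid product of PI3 kinase in blood cells, and DOK2 is a docking protein that restrains RAS. An array signal of BCR or ABL1 can therefore come from the fused gene, from the unfused copy or from both. Where each probe set lies relative to the fusion point is not given in the sources used here, so these transcripts were not told apart. All probe sets of BCR, ABL1 and GAB2 have names ending in _s_at, which marks shared sequence. They were dropped in the alternative that left shared sequence out, and whether other transcripts add to their signal was not tested.

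Across the whole table, the median intensity of an array was 31.1 to 32.0 with calactin and 33.0 to 34.3 in untreated cells, and every calactin array lay below every untreated one. Control RNAs with a poly-A tail, added before labelling, were 10.6 to 16.9 times brighter in replicates 1 and 2 than in replicate 3 of the same group. All 6 measured K562 markers (GATA1, HBZ, HBE1, KLF1, TAL1 and TFRC) lay above the median signal. Among them GATA1, TAL1 and TFRC were called, 1 higher and 2 lower with calactin. Of markers of other cells, 3 of 4 for T cells, 1 of 3 for B cells, 1 of 4 for myeloid cells, 3 of 3 for fibroblasts and 2 of 3 for epithelium lay above it. No detection calls were used, so these signals do not show whether a marker was expressed. CD3D and COL1A2 were called lower with calactin and no other of these markers was called.

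The start regions of BCR, ABL1 and the 3 genes with a called probe set are shown first. The BCR window is the region from which the fused gene is transcribed, and the ABL1 window is a start that the fusion does not use. Each is the 250 bases before an annotated transcription start, read 5′ to 3′ from RefSeq on GRCh38.p14, which is the reference and not the K562 genome. Capitals mark matches on either strand to the letters GGGCGG, the GC box, or to CCAAT, also called the CAAT box. The letters AGATAA for GATA factors, TTCNNNGAA for STAT factors and GGAAGT for ETS factors were searched and marked in the same way.
BCR upstream window, chr22:23180259-23180508, plus strand: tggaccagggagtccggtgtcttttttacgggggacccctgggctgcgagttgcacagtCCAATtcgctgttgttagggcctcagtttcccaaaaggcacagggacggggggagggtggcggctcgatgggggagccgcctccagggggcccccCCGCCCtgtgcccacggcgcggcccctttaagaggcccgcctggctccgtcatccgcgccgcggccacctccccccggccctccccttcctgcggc
ABL1 upstream window, chr9:130835004-130835253, plus strand: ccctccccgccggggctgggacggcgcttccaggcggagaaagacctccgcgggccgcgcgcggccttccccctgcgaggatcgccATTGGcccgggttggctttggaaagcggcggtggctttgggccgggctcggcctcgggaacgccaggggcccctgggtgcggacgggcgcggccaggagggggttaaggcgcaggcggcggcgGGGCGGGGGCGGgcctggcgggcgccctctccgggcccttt
SOS1 upstream window, chr2:39124869-39125118, minus strand: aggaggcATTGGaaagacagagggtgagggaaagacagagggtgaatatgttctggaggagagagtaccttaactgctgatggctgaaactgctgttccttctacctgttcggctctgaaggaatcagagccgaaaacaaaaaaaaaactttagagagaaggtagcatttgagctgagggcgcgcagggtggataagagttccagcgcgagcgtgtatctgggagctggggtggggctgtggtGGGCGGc
CRKL upstream window, chr22:20917157-20917406, plus strand: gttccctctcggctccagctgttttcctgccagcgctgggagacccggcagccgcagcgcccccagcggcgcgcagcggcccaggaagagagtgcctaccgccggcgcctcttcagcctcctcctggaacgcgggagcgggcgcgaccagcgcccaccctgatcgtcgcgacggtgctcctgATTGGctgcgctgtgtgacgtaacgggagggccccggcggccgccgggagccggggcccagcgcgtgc
INPP5D upstream window, chr2:233060092-233060341, plus strand: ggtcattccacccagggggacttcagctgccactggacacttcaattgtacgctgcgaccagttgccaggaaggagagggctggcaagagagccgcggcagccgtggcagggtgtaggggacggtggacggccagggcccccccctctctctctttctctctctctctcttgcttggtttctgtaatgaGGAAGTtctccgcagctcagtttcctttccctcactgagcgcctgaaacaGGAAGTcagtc

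On GRCh38.p14, BCR spans chr22:23180509-23318037 and CRKL chr22:20917407-20953747, on the same chromosome; SOS1 spans chr2:38981549-39124868 and INPP5D chr2:233060342-233207903. The BCR window held 1 GC box and 1 CCAAT match and was 70.8% G and C. The ABL1 window held 2 GC boxes side by side and 1 CCAAT match, at 78.4% G and C. RefSeq lists the ABL1 gene from chr9:130713043 to 130887675, so this window belongs to an inner start of the gene. SOS1 has 2 listed starts: the outer one, shown, held 1 GC box and 1 CCAAT match, and the inner one at chr2:39121052-39121301 held none of the 5 motifs. CRKL held 1 CCAAT match, and INPP5D held 2 ETS matches and neither a GC box nor CCAAT. Of 35116 windows of the same length over all genes in the table, 42.6% held a GC box, 32% CCAAT, 19.5% the ETS letters, 9.17% the GATA letters and 6.57% the STAT letters. Their median share of G and C was 58%. A match is a run of letters and not a binding site.

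Calactin and untreated arrays were compared to ask which of these transcripts differ in exposed cells. Among the 22 probe sets, 3 rose, those of CRKL (1 of 2) and SOS1 (2 of 5), and 1 of INPP5D (1 of 3) fell. The other 18 were not called, among them all probe sets of BCR, ABL1, ABL2, GAB2, GRB2 and DOK2. A probe set counts as called at an adjusted p under 0.05 in limma, with the Benjamini-Hochberg adjustment over all 54613 probe sets. This fit does not pair the samples by replicate number, and a fit with that number as a block was an alternative. The called share was 18.2% of the member probe sets against 13.9% of all probe sets, or 3.68% higher and 10.3% lower, so the share is near the background and is no result about the set. The median log2 difference was -0.05 over the 22 and -0.05 over all probe sets. The arrays of the groups did not overlap for 11 of the 22, 6 higher and 5 lower with calactin, against 28.4% of all probe sets, or 9.36% higher and 19% lower. Of the 22, 19 lay above the median signal, so all probe sets, bright and dim, are not a like background. Among the 5 lower is INPP5D 203331_s_at, which read 1 to 3.73, near the floor.

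**Figure D1:**
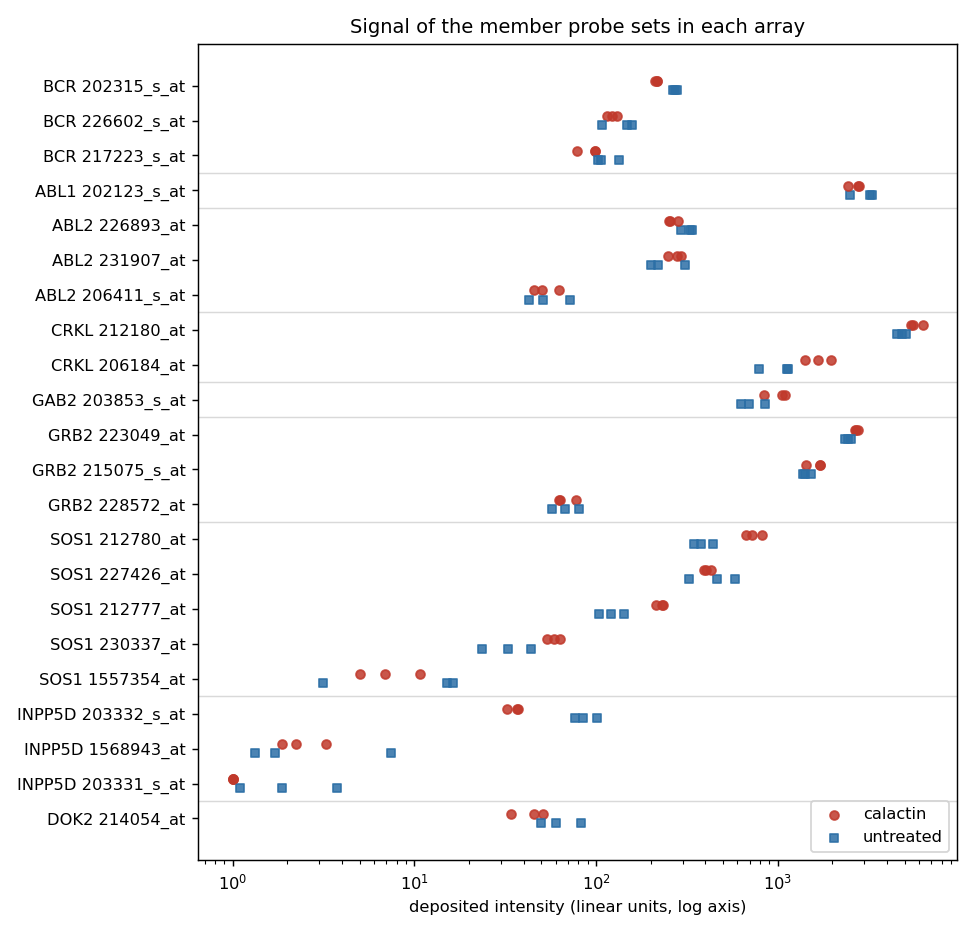
Deposited intensity (log axis) of each of the 22 probe sets in the 3 calactin arrays (circles) and the 3 untreated arrays (squares), grouped by gene. SOS1 212780_at and 212777_at lie to the right in all calactin arrays, INPP5D 203332_s_at lies to the left, and ABL1 overlaps between the groups.

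SOS1, the exchange factor that GRB2 brings to RAS, rose in 2 of its 5 probe sets, the largest rises among the members. Probe set 212780_at read 669, 726 and 820.3 intensity units in calactin replicates 1, 2 and 3 and 344, 379 and 441 in the untreated ones. All calactin arrays lay above all untreated arrays. The fold change was 1.87, a log2 difference of 0.90 ± 0.12 (SE, n = 3 each; limma adjusted p = 0.00166). Here and below log2 differences and fold changes are on the log2(intensity + 16) scale. This scale understates the change of dim probe sets, and a log2 difference is positive where calactin was higher.

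Probe set 212777_at of SOS1 read 229.6, 214 and 233 with calactin and 121.6, 103 and 142 without, again with no overlap. Its log2 difference was 0.81 ± 0.14 (SE; limma adjusted p = 0.00486). The dimmer 230337_at read 58.5, 63.2 and 53.9 against 23.4, 43.7 and 32.6, also without overlap, and missed the threshold at 0.62 ± 0.20 (limma adjusted p = 0.0842). The remaining SOS1 probe sets did not follow these. 227426_at read 391, 429 and 404 with calactin and spread from 327 to 579 in untreated arrays, a log2 difference of -0.12 ± 0.18. 1557354_at was dim, at 5.02 to 10.8 with calactin and 3.14 to 16.2 without. Averaged over all 5 probe sets, SOS1 was at 0.40 and was not called (limma adjusted p = 0.0501).

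CRKL, the adaptor that the fused kinase phosphorylates, rose in 1 of 2 probe sets. Probe set 206184_at read 1659, 1956 and 1405 with calactin and 1132, 1119 and 788 without. Every calactin array lay above every untreated array, by a log2 difference of 0.72 ± 0.16 (SE, n = 3 each; limma adjusted p = 0.0204), or 1.65-fold. This call was lost without calactin replicate 1 (limma adjusted p = 0.072), calactin replicate 2 (0.0894) or untreated replicate 3 (0.0617), and with eBayes without a trend or in replicates 1 and 2 alone (0.056 in both). The brighter 212180_at read 6300 on calactin replicate 1, then 5397 and 5537, against 4813, 4551 and 5059. It did not overlap either, and its difference of 0.25 ± 0.08 was not called (limma adjusted p = 0.0715) but was with the replicate number as a block (limma adjusted p = 0.0315). With the mean of both probe sets CRKL was at 0.49 and was called (limma adjusted p = 0.0074).

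GAB2, the docking protein that recruits PI3 kinase, was higher in each replicate pair but missed the threshold. Its 1 probe set, 203853_s_at, read 1061, 839 and 1091 with calactin and 697, 626 and 850.0 in untreated cells. Calactin replicate 2 lay just under untreated replicate 3, so the groups overlapped. The log2 difference was 0.45 ± 0.14 (SE, n = 3 each; limma adjusted p = 0.0706). By replicate number it was 0.59, 0.41 and 0.35, and the fit with the replicate block called it higher (limma adjusted p = 0.00462). It was also called without calactin replicate 2 (limma adjusted p = 0.0487).

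GRB2, the adaptor that links these proteins to the fused kinase, was not called in any of 3 probe sets. 223049_at read 2758, 2668 and 2704 with calactin and 2428, 2332 and 2538 without. These arrays did not overlap, and the log2 difference was 0.16 ± 0.07 (limma adjusted p = 0.188). 215075_s_at gave 0.16 ± 0.09 from groups that overlapped, and the dim 228572_at gave -0.01 ± 0.17. 223049_at was called higher under quantile normalization, and both it and 215075_s_at under poly-A spike scaling with the replicate block.

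The fusion partners themselves were not called in the fit without the replicate block. The 1 ABL1 probe set, 202123_s_at, read 2809, 2761 and 2438 with calactin and 3292, 2487 and 3201 in untreated cells. Untreated replicate 2 lay among the calactin arrays, and the log2 difference was -0.16 ± 0.12 (SE, n = 3 each; limma adjusted p = 0.498). BCR had 3 probe sets, all with a negative difference. The brightest, 202315_s_at, read 215.9, 216.4 and 211 with calactin and 279.9, 264 and 273 without. The arrays of a group were close and the groups did not overlap, yet the difference of -0.32 ± 0.10 missed the threshold (limma adjusted p = 0.0672). With the replicate block BCR 202315_s_at was called lower (limma adjusted p = 0.0428).

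The other BCR probe sets were 217223_s_at, at 98.6, 98.9 and 78.1 against 134, 103 and 106, and 226602_s_at, at 129.9, 114 and 122 against 157, 108 and 148. Their log2 differences were -0.27 ± 0.16 and -0.15 ± 0.16. Quantile normalization turned 226602_s_at to 0.043. Poly-A spike scaling with the replicate block, under which the median of all probe sets was 0.25, put the 3 BCR probe sets at 0.20, 0.18 and 0.32 and ABL1 at 0.41, none of them called. Relative to that median, 202315_s_at and 217223_s_at lay lower and 226602_s_at and ABL1 higher.

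ABL2, the close relative of ABL1 that the exchange leaves intact, was not called either. 226893_at read 253, 281 and 256 with calactin and 294, 329 and 338 without, with no overlap and a log2 difference of -0.27 ± 0.11 (limma adjusted p = 0.161). 231907_at gave 0.18 ± 0.16 and 206411_s_at -0.04 ± 0.20, both from overlapping groups. The probe sets of ABL2 thus differed in sign, and 231907_at was called higher under poly-A spike scaling with the replicate block.

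**Figure D2:**
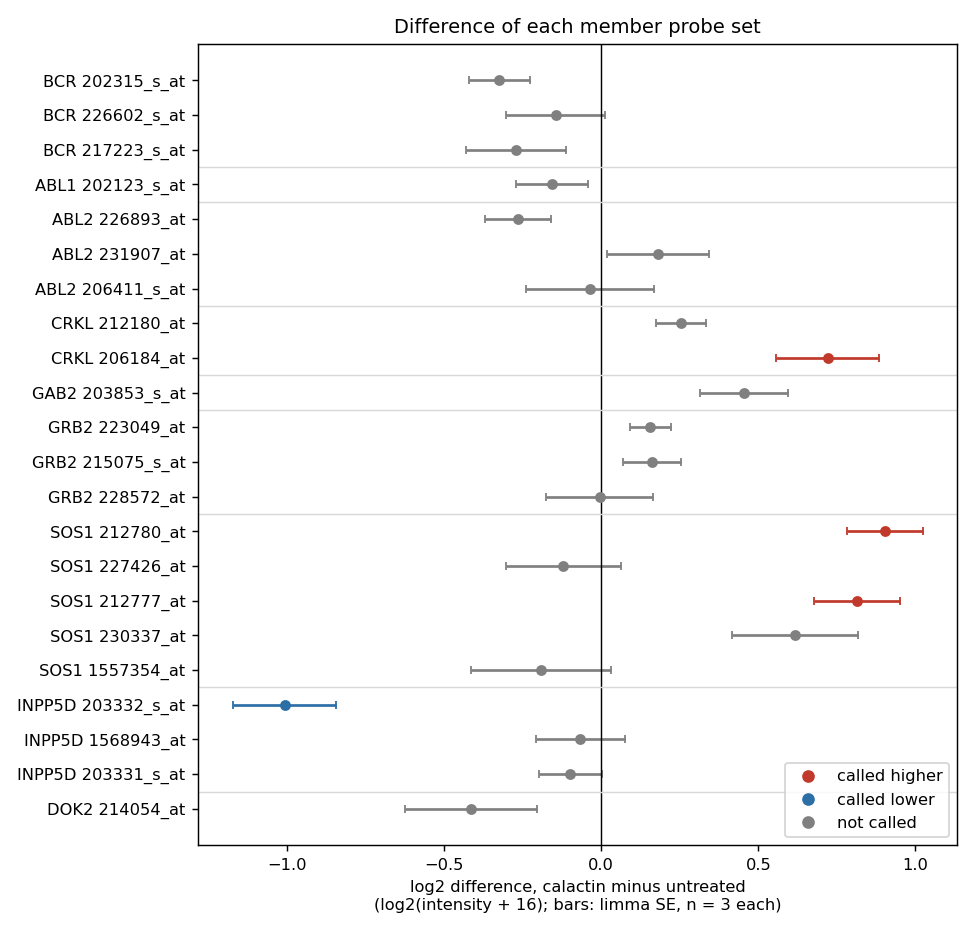
Log2 difference between calactin and untreated arrays for each of the 22 probe sets, with the limma standard error as bars and n = 3 each; red is called higher, blue called lower and grey not called. The 3 called rises lie between 0.72 and 0.90, and the 1 called fall, of INPP5D 203332_s_at, at -1.01.

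INPP5D, which opposes PI3 kinase, fell in 1 of 3 probe sets, the only member called lower and the only one changed at least 2-fold. Probe set 203332_s_at read 37.1, 36.7 and 32.5 with calactin and 77.0, 85.3 and 101 in untreated cells. Every calactin array lay below every untreated one, a 2.01-fold fall and a log2 difference of -1.01 ± 0.17 (SE, n = 3 each; limma adjusted p = 0.0043). With the smaller pseudocount of 1 it was -1.28, and with 64 it was -0.61. The call was lost under poly-A spike scaling with the replicate block, at -0.58 (limma adjusted p = 0.118), and in replicates 1 and 2 alone, at -0.88 (0.0987). The other INPP5D probe sets were near the floor of the table: 203331_s_at read 1 in all 3 calactin arrays and at most 3.73 in untreated ones, and 1568943_at read at most 7.47 in any array. With the mean of the 3, INPP5D was at -0.39 and not called (limma adjusted p = 0.0657).

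DOK2, which like INPP5D is expressed mainly in blood cells, read 51.2, 45.5 and 34.01 with calactin and 82.2, 49.6 and 59.8 without on probe set 214054_at. Calactin replicate 1 lay above untreated replicate 2, and the log2 difference was -0.41 ± 0.21 (limma adjusted p = 0.287). INPP5D and DOK2 are also expressed in other blood cells. Of 4 T cell markers only CD3D was called, and their summed signal was 1748 to 1927 with calactin and 2240 to 2646 without. The 4 myeloid markers summed to 613 to 801 with calactin and 831 to 869.8 without, and the 3 measured B cell markers to 79.7 to 96.0 against 61.1 to 82.2, with none of either list called. Outside the blood, the 3 epithelial markers summed to 4272 to 4713 against 5282 to 5558, and the 3 fibroblast markers to 886 to 1115 against 969.8 to 1202. T cell, myeloid and epithelial sums were thus lower without overlap, B cell sums overlapped and lay mostly higher, and fibroblast sums overlapped. A sum of intensities follows its brightest gene, so it does not show that each marker moved. Of the myeloid markers only LYZ lay above the median signal. CD3G, CD14, ELANE, CSF3R, MS4A1, PAX5 and CDH1 were at or below the median signal. Every array is labelled as the K562 line, and any link between these marker signals and the INPP5D fall was not tested.

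**Figure D3:**
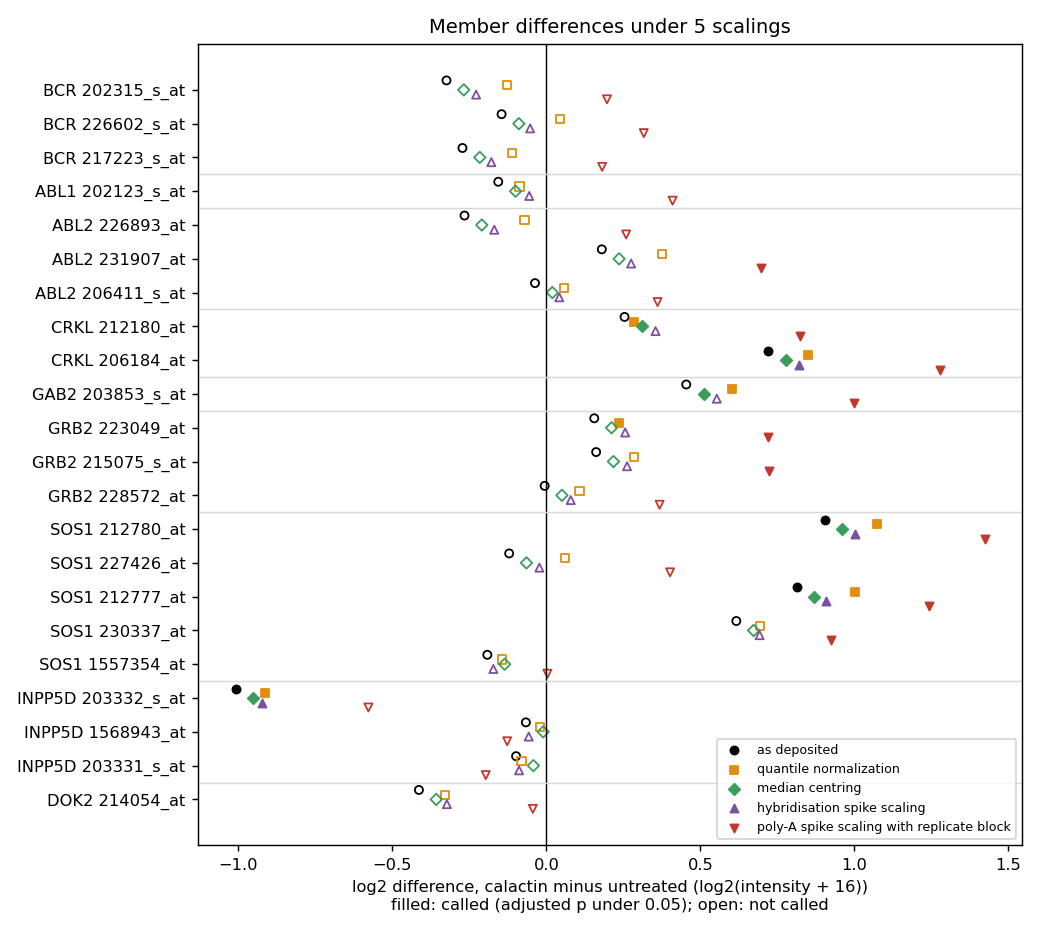
Log2 difference of each of the 22 probe sets with the values as deposited and under 4 other scalings; filled symbols are called and open ones are not. SOS1 212780_at, SOS1 212777_at and CRKL 206184_at are filled and positive under all 5 scalings, whereas BCR and ABL1 lie on both sides of 0.

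The members' counts shifted with the setting, and so did the background. Called higher, with the share of all features beside it, were 6 of 22 under quantile normalization (6.19% of all), 5 under median centring (4.74%), 9 under poly-A spike scaling with the replicate block (19.4%), 5 with the replicate block alone (5.24%) and 6 with robust eBayes (4.2%). Of the 19 above the median signal, tested alone, 6 were called higher (9.39% of all such probe sets). CRKL 212180_at and GAB2 were among the members added under each of these settings. With probe sets averaged per gene, CRKL alone of 9 genes was called higher (4.03% of genes) and 0 lower (14.4%). In replicates 1 and 2 alone, 1 was called higher (0.623%) and 0 lower (2.34%).

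Called lower were 0 under poly-A spike scaling with the replicate block (2.53% of all) and 2, INPP5D 203332_s_at and BCR 202315_s_at, with the replicate block (12.9%). With shared sequence left out, 0 of 13 were called lower (8.65%). That setting drops INPP5D 203332_s_at and BCR 202315_s_at, so its 0 says nothing about them. Without calactin replicate 1, 2 or 3, the members called higher were 2, 3 and 3 (2.68%, 2.24% and 2.25% of all). Without untreated replicate 1, 2 or 3 they were 3, 4 and 2 (2.51%, 3.57% and 2.39%). INPP5D 203332_s_at was called lower each time, against 7.29%, 7.41%, 7.42%, 8.59%, 8.85% and 6.67% of all in the same order.

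As a description of pattern, the genes most alike to BCR and ABL1 over the 6 arrays were found by Pearson's correlation of log2 signals among 12558 genes above the median signal. For BCR 202315_s_at they were PHLDB3, FOSL1 and CNOT11, each at r = 0.999. FOSL1 encodes a FOS-family transcription factor, and CNOT11 a subunit of the CCR4-NOT complex, which shortens poly-A tails. The BCR pattern was a common one, shared at r over 0.95 by 1266 genes. For ABL1 the nearest were JRK (r = 0.997), DEFA6 (0.991), a gut defensin, and H3C6 (0.986), a histone H3 gene, and 19 genes passed r of 0.95. These 6 arrays hold both groups, so a shared difference between the groups raises the correlation.

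The wider pathway was read from 4 lists, each gene by its probe set with the highest mean. Of 63 genes, 48 were measured, and 4 rose, 10 fell and 34 were not called. The called share was 29.2%, against 19.5% of all genes read this way (4.37% higher and 15.1% lower). The lists were set with earlier results of these data known, so the gap between these shares is a description only. Their median log2 difference was -0.08, against -0.06 for all genes. With the replicate block 9 were called higher and 13 lower, where 5.24% and 12.9% of all probe sets were. These shares and those below are over all probe sets and not 1 per gene, so they are not a like background. In the main fit the shares over all probe sets were 3.68% and 10.3%, under the 4.37% and 15.1% of genes. Leaving out an array lowered the counts over all probe sets too, from 3.68% higher and 10.3% lower. List genes were 1 higher and 5 lower without calactin replicate 2 (2.24% and 7.41% of all probe sets). They were 2 higher without calactin replicate 3 or untreated replicate 3 (2.25% and 2.39%). They were 6 lower without calactin replicate 1 or untreated replicate 3 (7.29% and 6.67%).

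Among adaptors and docking proteins 2 rose, 4 fell and 9 of 15 were not called, with a median of -0.04. DOK1, a relative of DOK2 that also restrains RAS, fell from 208 to 216.8 in untreated arrays to 43.8 to 66.9 with calactin, a log2 difference of -1.65 ± 0.16 (limma adjusted p = 3.82e-04), and both of its probe sets were called lower. Whether DOK1 and DOK2 differ in their change was not tested. NCK2, an adaptor that links tyrosine kinases to actin, fell by 1.08 ± 0.12 (limma adjusted p = 8.22e-04), from 638 to 742 down to 294 to 382. GAB1, the relative of GAB2, rose by 0.57 ± 0.12 (limma adjusted p = 0.0158), with 3 of 7 probe sets called higher. The GAB1 call was lost without calactin replicate 2 (limma adjusted p = 0.0512) or untreated replicate 3 (0.0573). RAPGEF1, the exchange factor for RAP1 that CRK and CRKL carry, rose by 0.43 ± 0.10 (limma adjusted p = 0.0246). The RAPGEF1 call was lost without any array but untreated replicate 1, with limma adjusted p between 0.0603 and 0.0971. The other falls, outside the rule for naming and chosen after their values were seen, were DOK3 at -0.66 and PXN, the focal adhesion protein paxillin, at -0.46.

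Of 9 measured genes of RAS and MAP kinase signalling, 1 rose, 0 fell and 8 were not called, with a median of 0.08. The rise was that of SOS2, the relative of SOS1, at 304.5 to 343 with calactin and 199.2 to 255 without, a log2 difference of 0.52 ± 0.12 (limma adjusted p = 0.0227). Calls were made for 2 of its 6 probe sets. The SOS2 call was lost without calactin replicate 2 (limma adjusted p = 0.0885), calactin replicate 3 (0.0918), untreated replicate 1 (0.0655) or untreated replicate 2 (0.0544), and when its probe sets were averaged (0.36). ARAF was at 0.47 ± 0.14, HRAS at 0.28 ± 0.12 and SHC1, which carries GRB2 to kinases, at -0.20 ± 0.07, and none of these was called. ARAF, a RAF-family kinase, had 1 of 2 probe sets called higher, and the probe set with the higher mean was called higher in 9 of 20 alternatives, among them the replicate block (limma adjusted p = 0.0081). HRAS was called higher with the replicate block (limma adjusted p = 0.0496) and with the block under poly-A spike scaling, at 0.81 (0.00394). SHC1 was called lower with the replicate block (limma adjusted p = 0.0446) and higher, at 0.36, with the block under poly-A spike scaling (0.0439).

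Of 11 measured genes of PI3 kinase and AKT signalling, 1 rose, 3 fell and 7 were not called, with a median of -0.09. PIK3R3, a regulatory subunit, rose 3.27-fold, from 175 to 227 up to 544 to 1006, and both of its probe sets were called. PIK3CB and PIK3CD, catalytic subunits, fell by 0.68 ± 0.11 and 0.54 ± 0.10 on the log2 scale, and MTOR, a kinase downstream, by 0.51 ± 0.10 (limma adjusted p = 0.00338, 0.00849 and 0.00866). PIK3CD and MTOR had a positive sign under poly-A spike scaling with the replicate block, at 0.015 and 0.047. Both still lay below the median of all probe sets under that scaling, 0.25. INPPL1, the widely expressed relative of INPP5D, was named after its value was seen and was not called, at -0.24 ± 0.09 (limma adjusted p = 0.133).

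Among 13 measured kinases, phosphatases and ABL regulators, 0 rose, 3 fell and 10 were not called, with a median of -0.14. LYN, a Src-family kinase active beside BCR-ABL1, fell by 0.45 ± 0.10 (limma adjusted p = 0.0155) and was called lower in all 3 probe sets. FYN, of the same family, fell by 0.55 ± 0.15 (limma adjusted p = 0.045), in 1 of 5 probe sets. PTPN12, a tyrosine phosphatase, fell by 0.34 ± 0.08 (limma adjusted p = 0.026). PTPN18, another phosphatase of this kind, was not called, at -0.30 ± 0.11, although 1 of its 3 probe sets was called lower. It was called lower with the replicate block (limma adjusted p = 0.0368) and with its probe sets averaged, at -0.55 (0.0102). LYN, PTPN12 and PTPN18 turned positive under poly-A spike scaling with the replicate block, at 0.12, 0.23 and 0.24. Each still lay below the median of all probe sets under that scaling, 0.25. The LYN call was lost without calactin replicate 2 (limma adjusted p = 0.0712), calactin replicate 3 (0.0697) or untreated replicate 3 (0.063). The PTPN12 call was lost without calactin replicate 1 (limma adjusted p = 0.0825), calactin replicate 2 (0.102), untreated replicate 2 (0.0673) or untreated replicate 3 (0.099). The FYN call was lost without any array but untreated replicate 1, with limma adjusted p between 0.0938 and 0.143.

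**Figure D4:**
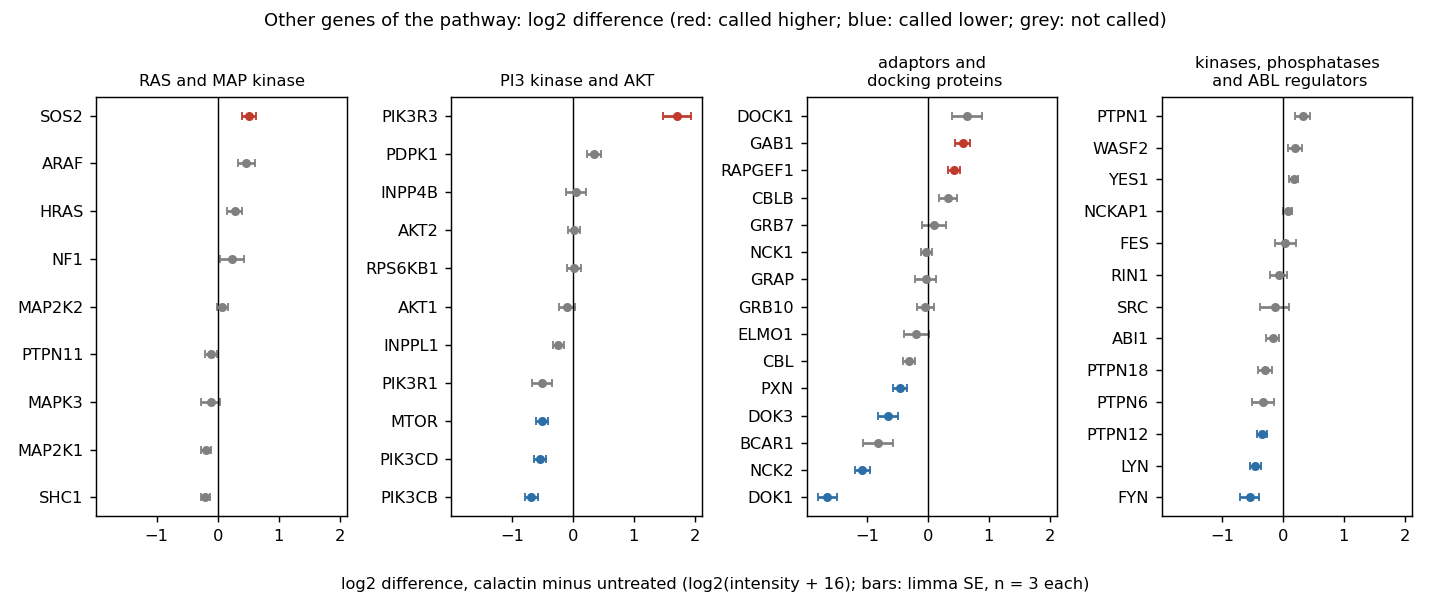
Log2 difference, with the limma standard error as bars, of the 48 measured genes of the 4 pathway lists, 1 panel per list; red is called higher, blue called lower and grey not called. PIK3R3 lies farthest to the right at 1.71, and DOK1 farthest to the left at -1.65.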

How the data were processed

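Per the labels' protocols, biotinylated cRNA was made from 8 ug of Trizol-extracted total RNA and hybridised to 1-colour Affymetrix arrays. The authors deposited 1 linear intensity per probe set and array. The summary algorithm, background correction and scaling are not stated by any source consulted, and no scanner files or detection calls were used. Of 54675 probe sets, 62 controls were left out. Of the 54613 tested, 41091 carried 1 gene symbol in the platform annotation, 1801 several and 11721 none; a gene was named only from a single symbol, and gene identifiers changed 0 of them.

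Intensities were turned into log2(intensity + 16) with no further normalization and no filter on low values. limma 3.58.1 in R 4.3.3 (lmFit, eBayes with a trend) tested every probe set, two-sided, with Benjamini-Hochberg adjustment over all and a threshold of 0.05, after the fit was tested on simulated data. Testing probe sets rather than 1 per gene keeps their disagreements visible. The number of arrays, with 4 residual degrees of freedom per probe set, limits the precision. The members were given by name and not by value, but they, the lists, tests and alternatives were set with earlier results of these data known.

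Named were all members, up to 4 genes of smallest p per list, and 3 genes most alike in pattern to BCR and ABL1. Alternatives were quantile normalization, median centring, hybridisation or poly-A spike scaling, pseudocounts of 1 and 64, bright probe sets alone, 1 value per gene, unshared sequence, other variance moderation, the replicate block, and arrays left out. Poly-A scaling was run with the block because those spikes differ between replicate numbers. Deviations of same-numbered arrays from their group means correlated at 0.416, 0.322 and 0.243 over 27306 probe sets, against at most -0.01 for other numbers. Such deviations cancel within a group, so a positive value for the same number pushes the others down on average. The negative values are therefore no separate sign of pairing. The numbers, from the sample titles, were taken as pairing the samples only in the replicate block and in differences by replicate number. The main fit left this pairing out, so its calls are those of an unpaired comparison. With the block, member calls were 5 higher and 2 lower (5.24% and 12.9% of all probe sets). Without it they were 3 and 1 (3.68% and 10.3%). Plots were drawn with matplotlib 3.10.9.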

Additional observations from a re-analysis of the deposited data

How the results depend on the processing

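SOS1 212780_at and INPP5D 203332_s_at kept their call and direction without each array in turn, and SOS1 212780_at in 19 of 20 alternatives, all but the mean of its probe sets. Member probe sets called higher numbered 3 as deposited and 6 under quantile normalization, 5 under median centring, 9 under poly-A spike scaling with the replicate block, 6 among bright probe sets alone, 6 with robust eBayes, 5 with the replicate block, 1 with probe sets averaged per gene and 1 in replicates 1 and 2 alone, with 2 to 4 leaving out an array. Members called lower numbered 1 and, in turn, 0 under poly-A spike scaling, 0 with probe sets averaged per gene, 0 with probe sets of shared sequence left out (which drops 203332_s_at itself), 2 with the replicate block and 0 in replicates 1 and 2 alone, and 1 without each array. Genes of the 4 lists called higher numbered 4 (4.37% of genes). They were 9 under quantile normalization (6.19% of all probe sets) and 1 under hybridisation spike scaling (1123 of 54613). They were 25 under poly-A spike scaling (19.4%) and 7 among bright probe sets (9.39%). With the mean of probe sets they were 2 (4.03% of genes), with the replicate block 9 (5.24%) and in replicates 1 and 2 alone 0 (0.623%). Leaving out an array gave 1 to 4 (1222 to 1949 of 54613). List genes called lower numbered 10 (15.1% of genes). They were 5, 2 and 2 under quantile, hybridisation spike and poly-A spike scaling (4081, 2307 and 1384 of 54613). With eBayes without a trend 5 were lower (4726), in replicates 1 and 2 alone 2 (2.34%), and without an array 5 to 9 (3640 to 4832).

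Over all probe sets, 2011 were called higher and 5600 lower. The pairs were 3382 and 4081 under quantile normalization, 1123 and 2307 under hybridisation spike scaling, 10582 and 1384 under poly-A spike scaling with the block, 975 and 3264 with the brightest probe set per gene, 797 and 2856 with the mean of probe sets, 1119 and 3235 without shared sequence, 2864 and 7044 with the replicate block, and 340 and 1279 in replicates 1 and 2 alone. Leaving out an array gave 1222 to 1949 and 3640 to 4832. Of the calls, 73.6% were lower as deposited, and after quantile normalization, median centring, hybridisation spike and poly-A spike scaling they were 54.7%, 65.9%, 67.3% and 11.6%.

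No called member changed sign. Poly-A spike scaling with the block put the median of all probe sets at 0.25. A value that turned positive under it can still lie below that median. Signs that turned under poly-A spike scaling with the block were those of BCR 202315_s_at (0.20), 226602_s_at (0.32) and 217223_s_at (0.18), ABL1 (0.41), ABL2 226893_at (0.26) and 206411_s_at (0.36), GRB2 228572_at (0.37), SOS1 227426_at (0.40) and 1557354_at (0.0035), SHC1 (0.36), PIK3CD (0.015), MTOR (0.047), LYN (0.12), PTPN12 (0.23) and PTPN18 (0.24). Under quantile normalization BCR 226602_s_at (0.043), ABL2 206411_s_at (0.058), GRB2 228572_at (0.11) and SOS1 227426_at (0.061) turned, under median centring ABL2 206411_s_at (0.019) and GRB2 228572_at (0.051), under hybridisation spike scaling the same pair (0.042 and 0.079), and in replicates 1 and 2 alone GRB2 228572_at (0.14), SOS1 227426_at (0.071) and INPP5D 1568943_at (0.043). Leaving out an array moved ABL2 206411_s_at from -0.17 to 0.12, GRB2 228572_at from -0.10 to 0.094, SOS1 227426_at from -0.33 to 0.065 and INPP5D 1568943_at from -0.14 to 0.074. The cause of these changes was not tested. Signals near the floor, as for 2 INPP5D probe sets and SOS1 1557354_at, limit what can be seen there.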
